A study of Mus musculus with 6 samples.

Results

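Neural miRNAs are microRNAs (miRNAs) best known from neurons, and 7 of them were looked for here in mature mouse sperm: mmu-miR-9, mmu-miR-124, mmu-miR-128, mmu-miR-132, mmu-miR-137, mmu-miR-212 and mmu-miR-218 (mmu, the prefix for mouse, is left out below). The members were the rows of a deposited miRNA table that carry one of these base names, with any arm (5p or 3p, the strands of the hairpin) and any copy number. That gave 10 of the 778 miRNA rows, from 6 of the 7 base names; no row for miR-137, miR-212-3p or the minor arms of miR-124 and miR-218 was analysed here. The samples were sperm from the cauda epididymis, the end of the duct where sperm are stored, of C57BL/6 males aged 8 weeks (the labels give the strain as C57BL/6 or C57BL/6J). There were 3 samples of stress-induced depressed mice (stress) and 3 of normal mice (normal); the labels name neither the stress procedure nor any genotype or drug. The labels leave unsaid whether each sample came from another animal. A p-value here therefore speaks of the spread among 6 sperm samples, part or all of which may be technical.

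A miRNA guides an Argonaute protein to messenger RNAs that pair with its seed, bases 2 to 8 of the mature strand, and lowers their output. miR-124 is the most abundant miRNA of neurons and helps keep non-neuronal genes off. miR-9 acts in neural progenitors and neuronal differentiation, miR-128 restrains neuronal excitability, and miR-132 and miR-212 are made from one transcript that CREB induces with neuronal activity. miR-137 acts in neuronal maturation, and miR-218, carried in introns of the Slit genes for axon guidance, is strong in motor neurons.

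The mature sequences of the members over 3 reads in every library are shown first, with the seed in capitals, because these 4 carry the group comparison.
mmu-miR-128-3p: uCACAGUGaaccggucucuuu
mmu-miR-9-5p: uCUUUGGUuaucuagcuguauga
mmu-miR-9-3p: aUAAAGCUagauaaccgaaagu
mmu-miR-218-5p: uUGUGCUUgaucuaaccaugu

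Members near the read floor follow, among them both arms of the miR-132 hairpin, whose few reads split differently between the groups.
mmu-miR-132-3p: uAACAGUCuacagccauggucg
mmu-miR-132-5p: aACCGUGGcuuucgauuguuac
mmu-miR-212-5p: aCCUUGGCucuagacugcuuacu
mmu-miR-128-1-5p: cGGGGCCGuagcacugucuga
mmu-miR-128-2-5p: gGGGGCCGaugcacuguaagaga

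These 9 deposited sequences were identical to the RefSeq entries of the same name (GRCm38.p6); miR-124-3p is named only. No seed was shared between members except by miR-128-1-5p and miR-128-2-5p, the passenger arms of the 2 miR-128 hairpins. Outside the members, miR-6539, with 4 reads over all libraries, had the miR-128-3p seed, and no other row had a member's seed. The members differed in the number of hairpins behind a row, which the sequence alone cannot separate. miR-128-3p comes from chr1:128202404-128202424 in an intron of R3hdm1 and from chr9:112118644-112118664 in an intron of Arpp21, on the strand of each gene (+ and -). miR-9-5p comes from 3 noncoding loci on the + strand, chr3:88215613-88215635 in an intron of Gm3764, chr7:79505279-79505301 in an intron of Mir9-3hg and chr13:83738821-83738843 in an exon of C130071C03Rik. miR-218-5p comes from chr5:48223966-48223986 in an intron of Slit2 and from chr11:35616840-35616860 in an intron of Slit3, both on the + strand. miR-132-3p (chr11:75173723-75173744) and miR-212-5p (chr11:75173403-75173425) lie together on the + strand in an intron of the noncoding 1700016P03Rik. Annotations are those of GENCODE M21 on GRCm38.

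The miRNA table held 1045922, 1522849 and 1010203 reads in stress replicates 1 to 3 and 1083237, 1112771 and 3067208 in normal replicates 1 to 3, so normal replicate 3 was by far the deepest. Over all miRNAs normal replicate 1 stood apart: its chi-square per degree of freedom was 473 and 553 against the other normal libraries, which differed from each other by 80.4 and from the stress libraries by 282 to 351 (the measure grows with depth). A count of 3, taken as the read floor, was worth 1.97 to 2.97 CPM (the share of the miRNA table times 1000000) in stress libraries and 0.978 to 2.77 CPM in normal libraries. Markers of the labelled cell type were present: the male germ cell list (27 rows) summed to 7215 to 8744 CPM in stress and 6840 to 9001 CPM in normal libraries. Its rows were uneven, with means of 3553 CPM for the X-linked miR-881-3p, 550 CPM for miR-34c-5p and 4.66 CPM for miR-449a-5p. Markers of other cells were present too, and the epithelial list summed higher than the germ cell list in both groups. All of these other lists but that of red blood cells took more of the reads in stress libraries. Such a rise was common on this scale. A share higher in every stress than in any normal library was found for 56.8% of the 236 miRNAs that passed a filter on low counts. The epithelial list (13 rows) summed to 29453 to 32443 CPM in stress and 12518 to 17746 CPM in normal libraries, and the smooth muscle, stromal and endothelial list (11 rows) to 9337 to 10885 CPM in stress and 2683 to 4964 CPM in normal libraries. The leukocyte list (8 rows) summed to 1355 to 1894 CPM in stress and 359.9 to 814.1 CPM in normal libraries. The red blood cell list (6 rows) overlapped between the groups, at 268.3 to 817.5 CPM in stress and 340.7 to 1018 CPM in normal libraries. No row of these 4 lists was at 0 in all libraries, but neither was any of the 778 rows, and markers without a row were not counted.

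Neural miRNAs took a small part of the sperm miRNA pool, and most of that part was miR-9-5p and miR-128-3p. All 10 rows together made up 0.161%, 0.151% and 0.142% of the miRNA reads in stress replicates 1 to 3, against 0.154%, 0.0794% and 0.129% in normal replicates 1 to 3. miR-9-5p and miR-128-3p held 92.42% to 93.02% of these reads in stress libraries and 92.96% to 94.96% in normal libraries. By mean CPM over the 6 libraries, miR-128-3p ranked 50th and miR-9-5p 55th of the 778 rows, miR-218-5p 139th and miR-9-3p 191st.

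Of the 10 members, 4 were over 3 reads in every library, and the same number was over 10. A further 4 were over the floor in some libraries only, and 2, miR-124-3p and miR-128-2-5p, were at or under it in all 6. miR-124-3p, the defining miRNA of neurons, had 1 read, in stress replicate 3, and none in the other 5 libraries, where 3 reads, the limit a count of 0 allows, equal 0.978 to 2.87 CPM. The 4 members over the floor were also the 4 that passed the filter on low counts, out of 236 miRNAs tested.

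miR-128-3p was the neural miRNA that fell in stress sperm, with TMM scaling. Scaled with TMM factors (edgeR's trimmed mean of M values, which centres the bulk of the miRNAs), it stood at 548.7, 412.6 and 484.4 CPM in stress replicates 1 to 3, against 1414, 804.3 and 919.9 CPM in normal replicates 1 to 3. Every stress sample lay below every normal sample, and normal replicate 1, the library that stands apart, was the highest. The mean was 481.9 ± 68.1 CPM in stress and 1046 ± 323.8 CPM in normal sperm (SD, n = 3 each), a log2 fold change of −1.12 ± 0.30 (SE) with an adjusted p of 0.0308 in edgeR's quasi-likelihood test (Benjamini-Hochberg over all 236 miRNAs). In a bulk sample, fewer cells that carry a miRNA and less of it per cell cannot be told apart. In that test 24 miRNAs were lower, 10.2% of those tested, and 6 were higher, 2.54%; groups that did not overlap with TMM, lower in stress, were found for 20.8%.

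The call on miR-128-3p did not hold as a share of the miRNA reads. Its share was 706.6, 512.2 and 666.2 CPM in stress replicates 1 to 3, against 1091, 549.1 and 790.0 CPM in normal replicates 1 to 3, and these groups overlapped. The mean share was 628.3 ± 102.6 CPM in stress and 810.1 ± 271.6 CPM in normal sperm (SD; exact permutation p = 0.4, two-sided, n = 3 each, where 0.1 is the smallest possible). With the miRNA total as library size, edgeR gave −0.37 ± 0.31 (adjusted p = 0.348, the highest over the alternatives, which ran down to 0.00547). The TMM factors themselves separated the groups, at 1.30 ± 0.068 in stress and 0.772 ± 0.088 in normal libraries (SD, n = 3 each), and scaling to the total moved the median log2 fold change of all miRNAs up to 0.76. Relative to that median, miR-128-3p was at −1.13 with the total, and at −1.12 relative to the median with TMM, a difference with no test of its own. The adjusted p was also 0.0531, 0.135 and 0.102 without stress replicate 1, 2 or 3 and 0.0596 without normal replicate 1 (edgeR), at log2 fold changes of −1.20, −1.03, −1.13 and −0.85.

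**Figure D1:**
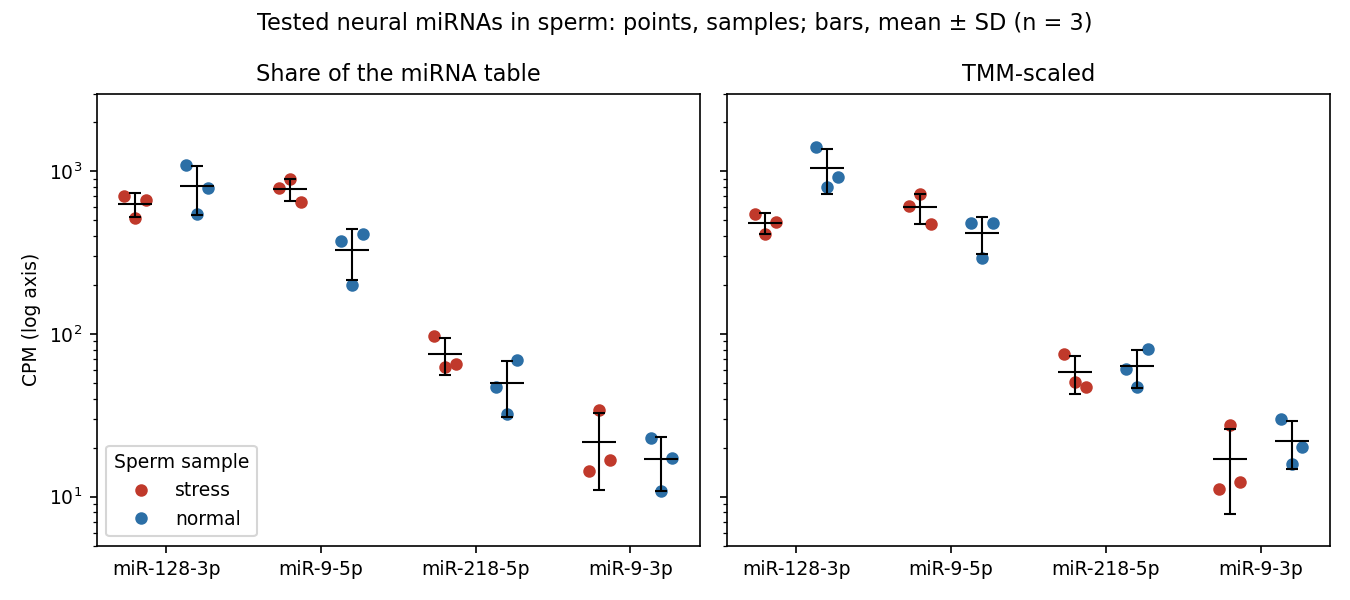
CPM on a log axis of the 4 tested neural miRNAs in each sample, stress (red) left of normal (blue), as a share of the miRNA table (left) and with TMM scaling (right); bars give the mean ± SD of 3 samples. Stress and normal samples of miR-128-3p separate with TMM and overlap as shares, and those of miR-9-5p separate as shares and overlap with TMM.

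miR-9-5p took a larger share of the reads in every stress sample than in any normal sample, and was not called with TMM. Its share was 785.0, 895.7 and 649.4 CPM in stress replicates 1 to 3, against 370.2, 198.6 and 410.5 CPM in normal replicates 1 to 3. The groups did not overlap, and normal replicate 2 was the lowest. The mean share was 776.7 ± 123.4 CPM in stress and 326.4 ± 112.5 CPM in normal sperm, 2.38-fold higher in stress (SD; exact permutation p = 0.1, two-sided, n = 3 each, the smallest possible). A higher share without overlap was common, found for 56.8% of the 236 tested miRNAs. With the miRNA total as library size edgeR called miR-9-5p higher (1.25 ± 0.33, adjusted p = 0.0132), as it did 40.7% of the miRNAs, and relative to the median of all miRNAs under that scaling its log2 fold change was 0.49.

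With TMM, miR-9-5p stood at 609.5, 721.5 and 472.1 CPM in stress replicates 1 to 3, against 479.7, 290.9 and 478.0 CPM in normal replicates 1 to 3. Stress replicate 3 lay within the range of the normal samples. The log2 fold change was 0.53 ± 0.30 (edgeR adjusted p = 0.243), and the adjusted p lay between 0.0132 and 0.581 over all alternatives. The epithelial, stromal and leukocyte sums given above were higher in stress libraries, like the miR-9-5p share. With the miRNA total, edgeR called 7 of 9 tested epithelial, 6 of 8 stromal and 3 of 5 leukocyte rows higher. Among male germ cell rows it called 6 of 19 higher, and among red blood cell rows 0 of 3, against 40.7% of all tested miRNAs. With TMM, 2 stromal rows and 0 rows of the other lists were called higher, against 2.54%. Of the 19 tested male germ cell rows 3 were called lower, against 10.2% of all tested miRNAs. The part of any of these cells in the miR-9-5p share was not tested.

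Inside a sample, the ratio of miR-9-5p to miR-128-3p needs no library size. There were 1.11, 1.75 and 0.975 miR-9-5p reads per miR-128-3p read in stress replicates 1 to 3, against 0.339, 0.362 and 0.520 in normal replicates 1 to 3. miR-128-3p was the more abundant of the pair in all 3 normal samples, and miR-9-5p in stress replicates 1 and 2. In stress replicate 3 they differed by less than the counting error (exact 95% interval of the ratio 0.874 to 1.09). The mean ratio was 1.28 ± 0.41 in stress and 0.407 ± 0.098 in normal sperm (SD, n = 3 each), 3.14-fold higher in stress, and 2.56 to 3.65-fold when each sample in turn was left out, lowest without stress replicate 2 and highest without normal replicate 3. This ratio was chosen after the values were seen, so it is given with no test. The groups did not overlap in the other ratios computed either. Those were miR-218-5p to miR-128-3p (1.89-fold higher in stress) and miR-9-5p to miR-218-5p (1.62-fold). How often ratios of other miRNAs separate the groups was not counted.

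miR-218-5p, the next neural miRNA in abundance, did not separate the groups. Its share was 97.5, 63.0 and 65.3 CPM in stress replicates 1 to 3, against 47.1, 32.4 and 69.4 CPM in normal replicates 1 to 3. Normal replicate 3 was above stress replicates 2 and 3, so the groups overlapped (exact permutation p = 0.3, two-sided, n = 3 each). The log2 fold change was −0.14 ± 0.32 with TMM (edgeR adjusted p = 0.795), 0.58 with the miRNA total and 0.12 with TMM without normal replicate 3, so its direction depended on the scaling and on that library. miR-218-5p lay between the miR-9 arms in level in every sample.

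miR-9-3p, the other arm of the miR-9 hairpins, was scarce beside miR-9-5p. It had 15, 52 and 17 reads in stress replicates 1 to 3, against 25, 12 and 53 reads in normal replicates 1 to 3. These are shares of 14.3, 34.1 and 16.8 CPM in stress and 23.1, 10.8 and 17.3 CPM in normal libraries, and the groups overlapped, with stress replicate 2 the highest of all. The log2 fold change with TMM was −0.34 ± 0.45 (edgeR adjusted p = 0.638), against 0.38 with the miRNA total. The mean share differed by 4.72 CPM (exact permutation p = 0.7, two-sided, n = 3 each), and by −1.46 CPM without stress replicate 2.

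Of the reads from both arms of miR-9, the 3p arm held 1.79%, 3.67% and 2.53% in stress replicates 1 to 3, against 5.87%, 5.15% and 4.04% in normal replicates 1 to 3. Every stress sample lay below every normal sample, but the exact 95% intervals overlapped for most pairs of a stress and a normal sample. They were 2.75% to 4.79% in stress replicate 2 and 3.04% to 5.25% in normal replicate 3. Those of stress replicates 2 and 3 (the latter 1.48% to 4.01%) overlapped every normal interval. That of stress replicate 1 (1.01% to 2.94%) was clear of normal replicates 1 and 3 only. The mean was 2.66% ± 0.95 in stress and 5.02% ± 0.92 in normal sperm (SD, n = 3 each), a difference of −2.36 percentage points, between −2.86 and −1.92 when each sample in turn was left out. This share was also chosen after the values were seen and has no test. How often the arm shares of other miRNAs separate the groups was not counted. The intervals cover counting error only, since reads without molecular identifiers are not independent molecules.

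**Figure D2:**
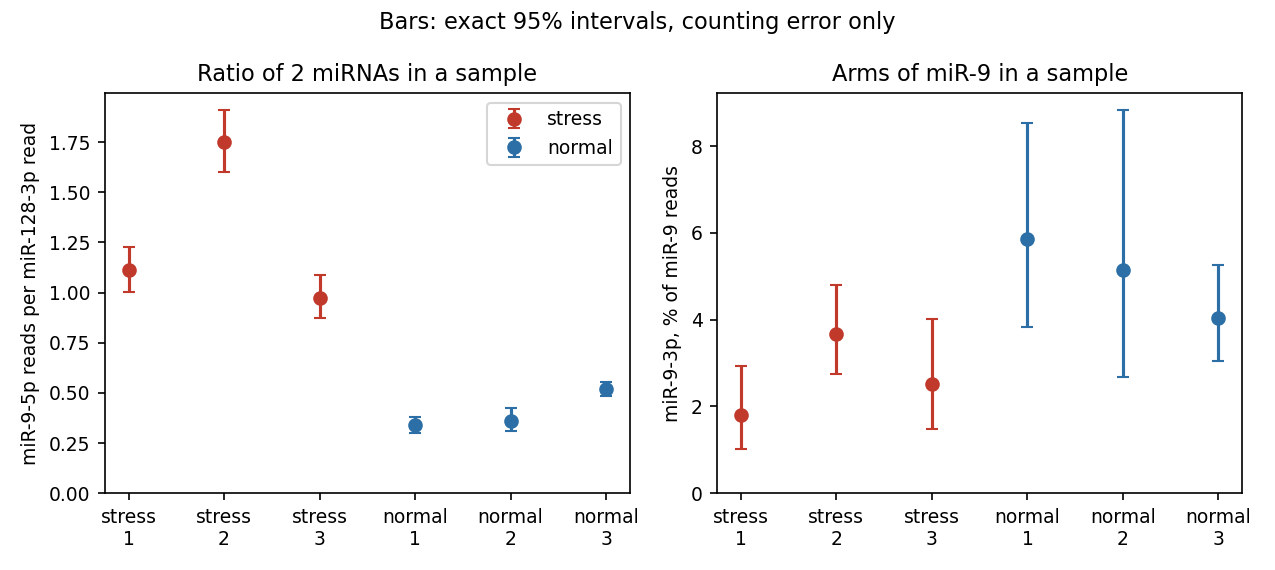
Reads of miR-9-5p per read of miR-128-3p (left) and the percent of miR-9 reads that came from the 3p arm (right) in each of the 6 samples, stress in red and normal in blue, with exact 95% counting intervals. The ratio is 0.975 or more in stress and at most 0.520 in normal samples. The arm shares of stress replicate 2 (3.67%) and normal replicate 3 (4.04%) are close. Their intervals overlap, as do those of most pairs of a stress and a normal sample.

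The miR-132 and miR-212 hairpins, which neuronal activity induces, gave few reads in sperm, at most 8 of any arm in a library. miR-132-3p, the guide strand in brain, had 5, 5 and 4 reads in stress replicates 1 to 3, against 0, 2 and 0 in normal replicates 1 to 3. All 3 stress libraries were over the floor and all 3 normal libraries under it, although normal replicate 3 was the deepest. Summed over the group, 14 reads in 3578974 for stress stood against 2 reads in 5263216 for normal, a ratio of shares of 10.3 (exact 95% counting interval 2.36 to 93.3). This interval, like those of the summed ratios below, leaves out the spread between libraries. On the same scale the median log2 fold change of all tested miRNAs was itself 0.76. An interval above 1, here or for the summed ratios below, thus does not by itself mean a rise beyond other miRNAs. The mean of the miR-132-3p shares, which weights each library alike, was 6.69-fold higher in stress. miR-132-3p was below the filter, and with no filter it did not pass (edgeR adjusted p = 0.483).

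miR-212-5p had 3, 4 and 8 reads in stress replicates 1 to 3, against 0, 0 and 5 in normal replicates 1 to 3. Its shares did not overlap, since the 5 reads of normal replicate 3 came from the largest library, at 1.63 CPM, and the lowest stress share was 2.63 CPM. Summed over the groups the ratio of shares was 4.41 (exact 95% counting interval 1.52 to 15.5), and the mean of the shares was 8.23-fold higher in stress; all 5 normal reads came from normal replicate 3. miR-132-5p, the other arm of miR-132, showed no such split, with 2, 2 and 4 reads in stress replicates 1 to 3, against 8, 1 and 6 in normal replicates 1 to 3, a ratio of 0.784 (interval 0.288 to 1.97).

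The passenger arms of miR-128 were almost absent beside miR-128-3p. miR-128-1-5p had 1, 2 and 5 reads in stress replicates 1 to 3, against 0, 1 and 0 in normal replicates 1 to 3; the shares did not overlap, and the 8 and 1 reads summed per group gave a ratio of 11.8 (exact 95% counting interval 1.58 to 522). miR-128-2-5p had 2 reads in stress replicate 3, 2 in normal replicate 3 and none elsewhere, both sums under the floor. Of the 6 members below the filter, 3 were higher in stress without overlap as shares, against 11.6% of the 542 miRNAs below the filter. Such a split needs reads in every stress library, which rows with very few reads cannot have. The 542 were not matched to the members in abundance. None of the 6 passed edgeR with no filter (adjusted p from 0.483 to 0.981). All 10 members were detected in stress replicate 3, 8 in each other stress replicate, and 5, 7 and 7 in normal replicates 1 to 3.

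**Figure D3:**
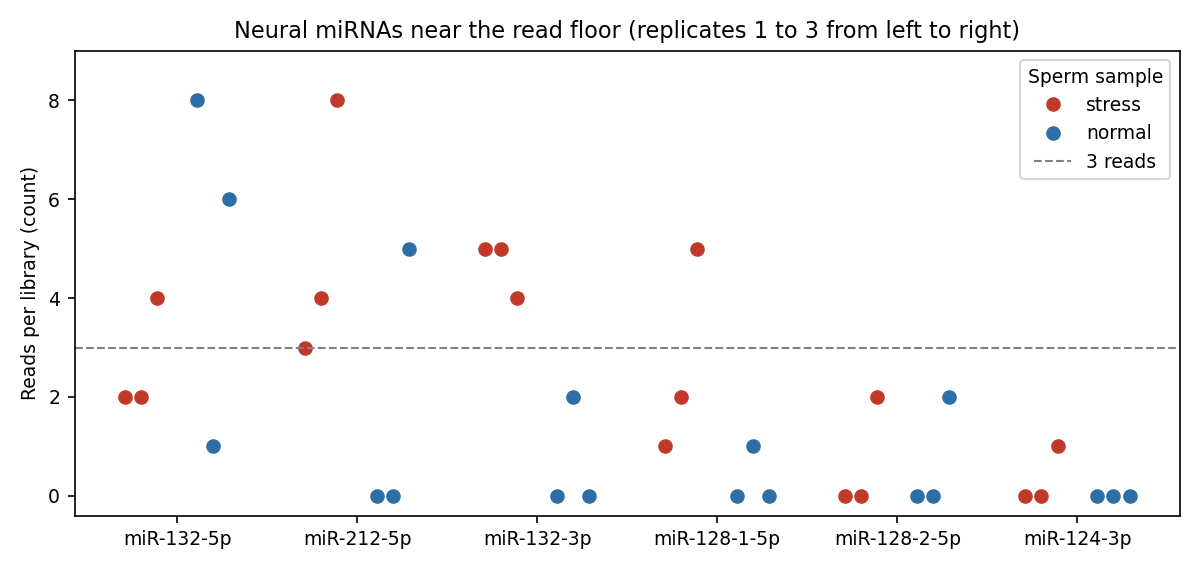
Reads per library of the 6 neural miRNAs near the read floor, stress (red) left of normal (blue), with the floor of 3 reads as a dashed line. miR-132-3p is over the line in all 3 stress libraries and under it in all 3 normal libraries, and miR-124-3p has a single read in 1 stress library.

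Set among all tested miRNAs, 1 of the 4 tested members fell with TMM, 0 rose and 3 did not pass, against 12.7% of all 236 called. Their median log2 fold change was −0.24, beside a median of 0.00 for all tested miRNAs. With the miRNA total the medians were 0.48 and 0.76, and the 1 called member was then miR-9-5p, higher. At that scaling 96 of all 236 tested miRNAs (40.7%) were called higher and 10 lower. A list of other miRNAs enriched in brain (40 rows, of which 11 were tested) was counted beside the members. There 0 rose, 1 fell and 10 did not pass with TMM, with a median of −0.33. With the miRNA total 3 of the 11 were called higher, against the 40.7% of all tested miRNAs, and 1 lower, with a median of 0.46. The 3 were miR-135a-5p, miR-135a-2-3p and miR-382-5p, named after their values were seen. The most abundant rows of this brain list were miR-7a-5p, a miRNA of neurons and endocrine cells, at −0.19 ± 0.27, and miR-379-5p, from the imprinted Dlk1-Dio3 cluster, at 0.03 ± 0.34, and neither passed (TMM, edgeR adjusted p = 0.655 and 0.97). The one that fell, named after its value was seen, was miR-485-5p of the same cluster (−1.94 ± 0.40 with TMM, edgeR adjusted p = 0.00938).

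**Figure D4:**
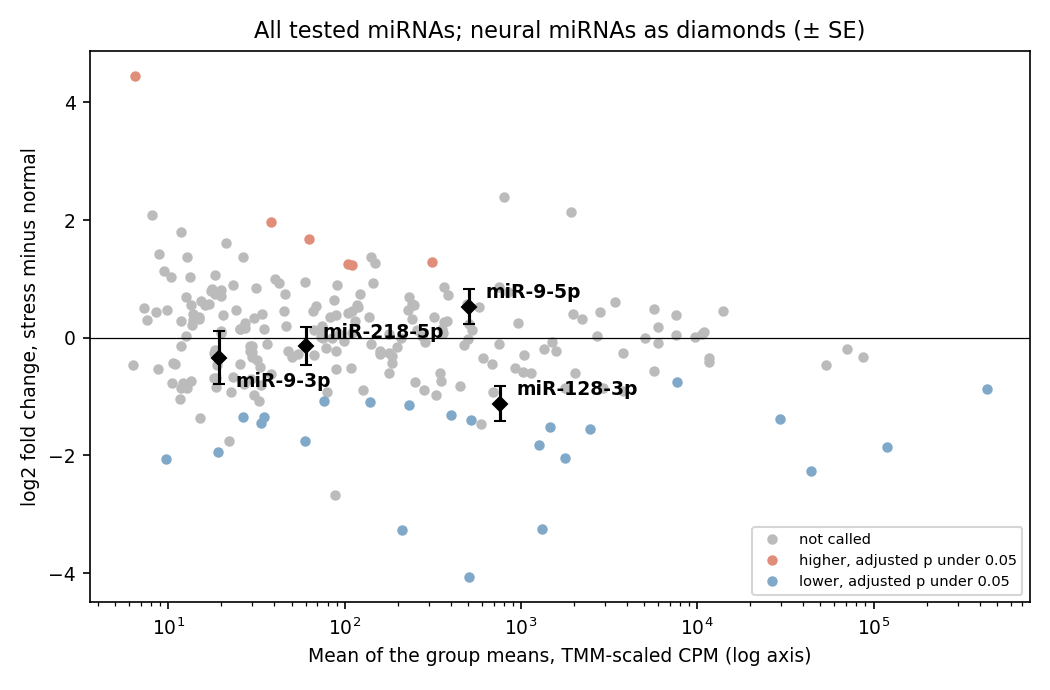
Log2 fold change, stress minus normal, against the mean TMM-scaled CPM (log axis) of the 236 tested miRNAs, with the 4 neural miRNAs as black diamonds ± SE and called miRNAs in colour. miR-128-3p (−1.12) lies among the miRNAs called lower, while miR-9-5p (0.53), miR-218-5p (−0.14) and miR-9-3p (−0.34) lie among those not called.

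The tested members did not follow one another across the samples. On log2 CPM with TMM, Pearson's r over the 6 samples was −0.48 between miR-128-3p and miR-9-5p, 0.21 between the miR-9 arms and 0.32 between miR-128-3p and miR-218-5p. Closest in pattern to miR-128-3p outside the members were let-7e-5p (r = 0.98), miR-342-5p (0.98) and let-7c-5p (0.97). Closest to miR-9-5p were miR-340-5p (r = 0.93), miR-17-5p (0.92) and the epithelial miR-200c-3p (0.92). Closest to miR-218-5p were miR-130b-5p (r = 0.92), miR-425-5p (0.90) and miR-200b-5p (0.87), and closest to miR-9-3p were miR-3470a (0.90), miR-29b-3p (0.87) and miR-142a-3p (0.76). These are descriptions over 6 samples that share libraries and scaling factors, picked as the highest of all tested miRNAs.

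**Figure D5:**
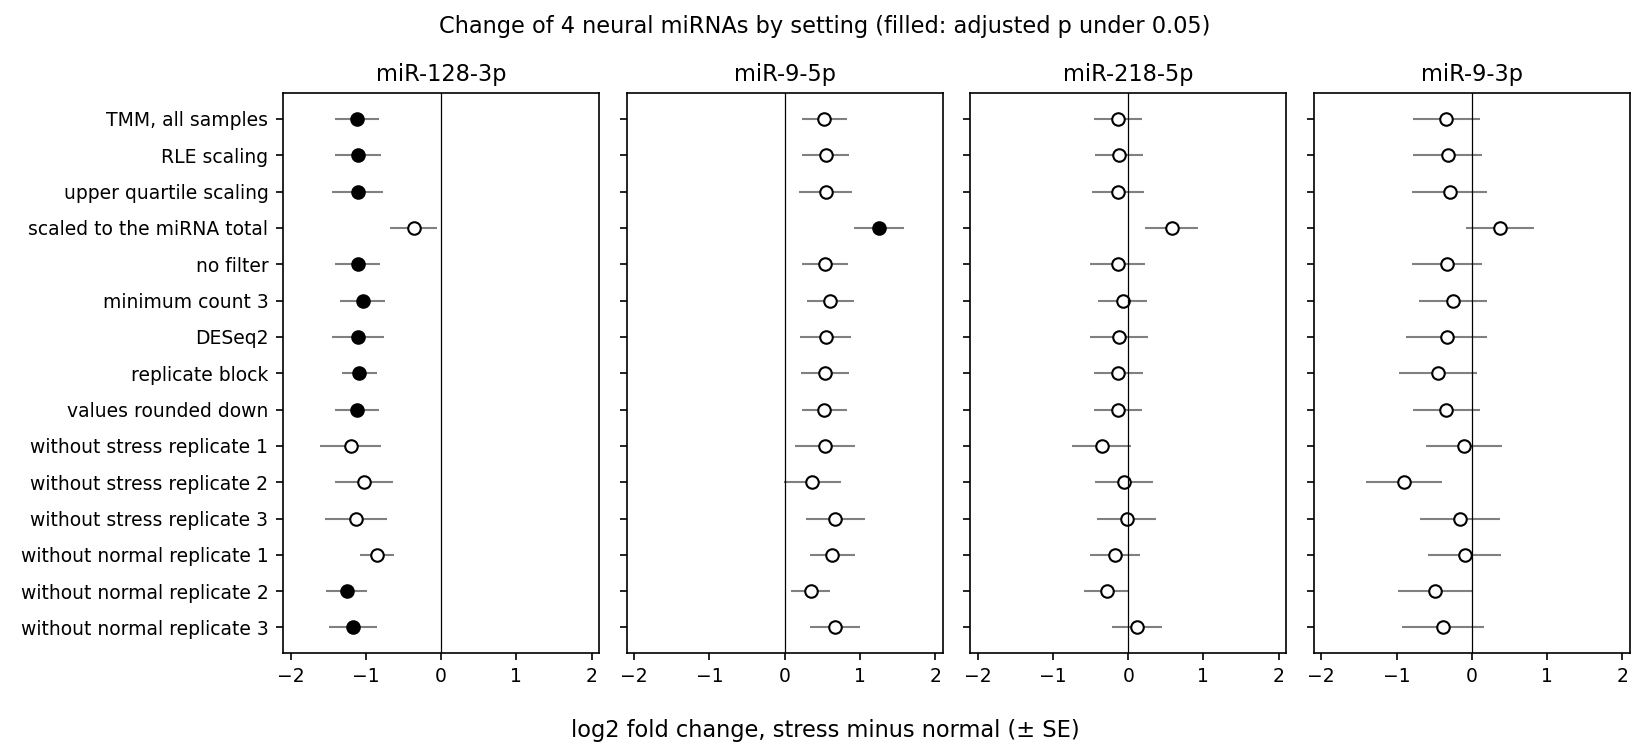
Log2 fold change, stress minus normal, ± SE of the 4 tested neural miRNAs under each scaling, filter, test and left-out sample, with filled points where the adjusted p was under 0.05. miR-128-3p is below 0 throughout, from −1.26 to −0.37, and miR-9-5p above 0 throughout, from 0.35 to 1.25, while miR-218-5p changes side with the miRNA total (0.58) and without normal replicate 3 (0.12), and miR-9-3p with the miRNA total (0.38).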

How the data were processed

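Small RNA of cauda epididymal sperm was measured by sequencing; per the labels, RNA was taken with Trizol, and Bowtie, with no version, is the tool in the submitters' processing notes. Not given in the sources used here are the build, the annotation and how reads were counted. The deposited miRNA table was taken to hold expected counts, unscaled by the authors, from its values: totals differ between samples, 92.0% of the values are whole within 0.001, and those of all 10 members are whole. Rounded counts of the whole table went into edgeR 4.0.16 under R 4.3.3 (filterByExpr, minimum count 10; TMM; glmQLFit and glmQLFTest; threshold 0.05); SE is the log2 fold change divided by the square root of F. Shares were tested by exact permutation. Alternatives were RLE, upper quartile and total scaling, other filters, DESeq2 1.42.0, rounding down, a replicate block and each sample left out. Depth was 1010203 to 3067208 reads. All members are named, with the 3 most correlated tested miRNAs (log2 CPM, prior count 2) of each tested member and the 2 most abundant of the brain list. Members and lists were chosen with earlier results of these data known. The piRNA and tRNA fragment tables were not used.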

Additional observations from a re-analysis of the deposited data

How the results depend on the processing

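The number of miRNAs called, 30 with TMM (6 higher, 24 lower in stress), was 106 with the miRNA total (96 higher, 10 lower), 49 with no filter (19 higher) and 47 with DESeq2 (17 higher); 16 were higher with RLE, 10 with upper quartile scaling and 14 with a minimum count of 3. Leaving out each sample gave 17 to 55 calls (4 to 22 higher, 13 to 33 lower), fewest without stress replicate 3 and most without normal replicate 3. miR-128-3p was at −0.37 and not called with the miRNA total, and at −1.26 to −0.85 with a sample left out; miR-9-5p was at 1.25 and called with the miRNA total. miR-218-5p changed sign with the miRNA total (0.58) and ranged from −0.35 to 0.12 with a sample left out, and miR-9-3p changed sign with the miRNA total (0.38); its share difference was −1.46 to 8.44 CPM with a sample left out. TMM centres most miRNAs at 0 while the total does not, which moved all 4 by 0.72 to 0.75; other causes were not tested. Deviations from the group means correlated at 0.11, −0.21 and 0.12 between samples with the same number. Samples with other numbers gave −0.32 to 0.245. With 3 samples per group this cannot decide whether equal numbers mark a shared batch, which the labels leave unsaid. With a replicate block 28 miRNAs were called and miR-128-3p stayed called (−1.08, adjusted p = 0.0317 in edgeR). The 6 members near the floor rest on 0 to 8 reads a library, which limits what can be said of them.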
